A study of Mus musculus with 36 samples.

Results

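Nucleolar ribosome biogenesis genes, 39 in all, were followed in mouse mesenteric lymph nodes during blockade of the lymphotoxin-beta receptor. They were listed by name for their part in ribosomal RNA transcription, processing and subunit assembly, out of 18193 genes that at least 1 probe set names alone. A probe set is a group of short array probes that reads 1 transcript. The 39 genes had 79 probe sets that carry their symbol and no other, 61 on array A and 18 on array B. Mrto4 had none. A probe set was tested where it exceeded its table's median intensity on at least 3 of the 18 arrays, and 59 (48 on array A, 11 on array B) from 35 genes passed. Nop16, Rrp12 and Polr1e had probe sets but none that passed.

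Ribosomes are begun in the nucleolus, where RNA polymerase I copies the ribosomal DNA into a long precursor RNA. Box C/D and box H/ACA particles, each a guide RNA with a protein core, then methylate and pseudouridylate that precursor, and other factors cut it and fold it into the small and the large subunit. Lymphocytes raise this whole programme when they are activated and grow, and Myc is the transcription factor best known for driving it.

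The mice had been given PBS, the day 0 group, or soluble lymphotoxin-beta receptor (sLTbetaR-Ig), which acts as a decoy for the ligands of that receptor. Treated nodes were taken after 1, 2, 3, 27 and 35 days. With 3 samples of every group on array A and another 3 measurements on array B, there were 36 in all. Strain, age, dose and route were not given in the sources used here, and neither was whether the 3 samples of a group were separate mice. The spread behind each p-value is therefore that between these samples, which may be technical. The labels name no PBS group other than day 0 and no group given a control protein, so treatment, its duration and the day of harvest cannot be told apart.

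Values are linear intensities, and the number of arrays limits their precision. The median intensity of an array lay between 272.8 and 299.5 (array A) or 149.8 and 165.2 (array B). No pair of replicates was identical. Lymphocyte markers were present: 7 of 7 T cell genes and 7 of 8 B cell genes (all but Pax5) exceeded the median on all 18 arrays, as did 7 of 8 fat cell genes. Nuclear genes for small subunits of the respiratory chain fell in the late samples, with 40 of 44 tested genes lower at days 27 and 35 than at days 1 to 3 and a median log2 change of -0.39. On array A, sample 3 of day 3, sample 2 of day 27 and sample 3 of day 35 had low weights (0.269, 0.232 and 0.287) in limma's estimate of array quality.

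The main difference in the nucleolar genes lay between the late and the early days, and it was uneven. Of the 35 tested genes, 10 were lower at days 27 and 35 than at days 1 to 3: Nop58, Nop56, Fbl, Nhp2, Nop10, Npm1, Rrs1, Noc2l, Imp3 and Polr1d. That is 28.6% of the 35, where 8.26% of all 12395 tested genes had at least 1 probe set called lower in the same comparison. The genes were chosen with earlier results of these data known, so this share and those below only describe the list. Among the 10, Rrs1 entered the test only through early samples, so its call is counted but adds no support. The largest differences were -0.52 on the log2 scale, for Polr1d and Nop58, and the smallest was -0.14, for Noc2l. Nop58, Nhp2, Npm1, Imp3 and Polr1d were also called lower on a late day against PBS, while Nop56, Fbl, Nop10, Rrs1 and Noc2l were not. The late day calls of Nhp2 came only from 1416605_at, which passed the filter through PBS and early samples alone. They are counted but add no support, and the second Nhp2 probe set was not called against PBS. On array A the median nucleolar change against PBS was 0.08, 0.06 and 0.05 on days 1, 2 and 3. Over all its probe sets it was 0.02, 0.03 and 0.02. The contrast thus also takes in early levels above PBS, none of them called. No probe set of the 39 genes was called higher in the fit used for these counts, with equal weights and all samples. Some other settings, given below, did call a few higher. The other 25 tested genes, among them Myc, the large RNA polymerase I subunits Polr1a and Polr1b, and the large subunit assembly trio Bop1, Pes1 and Wdr12, passed in no comparison. In RNA of a whole node, fewer cells of a type and less RNA per cell cannot be told apart.

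Each day was compared with PBS in 1 limma fit per array over all tested probe sets, and a change was called at a Benjamini-Hochberg adjusted p under 0.05. On day 1, 0 of the 59 probe sets were called, where over all tested probe sets the share called was 0.0164% (array A) and 0.00799% (array B). On day 2, 0 were called (background 0.114% on array A and 0.024% on array B), and on day 3 again 0 (0.556% and 0.0799%). Before adjustment, 2, 5 and 9 of the 59 had p under 0.05 on days 1, 2 and 3, where the shares of all tested probe sets over both arrays were 5.3%, 6.3% and 9.18%. Of these, 2, 5 and 6 were higher than in PBS, against 1.75%, 3.74% and 4.41% of all tested probe sets.

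On day 27, 4 of the 59 probe sets were lower and 0 higher. All 4 are on array A, where they are 4 of 48 probe sets, and the background there was 2.6% lower and 0.58% higher. On array B the background on day 27 was 0.328% lower and 0% higher. On day 35, 5 were lower and 0 higher, all on array A, where 5.58% of all probe sets were lower and 1.77% higher. The array B background on day 35 was 2.88% lower and 0.703% higher. The calls of both days include Nhp2 1416605_at, which passed the filter only through PBS and early samples. With PBS sample 3 or day 35 sample 2 left out, the day 35 count fell to 3. Without the 3 samples of low weight together, 9 were called on day 27 (2 higher, 7 lower) and 9 on day 35 (4 higher, 5 lower), all on array A. The background there moved as well, to 6.28% higher and 5.43% lower on day 27 and to 7.7% higher and 7.27% lower on day 35.

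Array weights raised the counts both of nucleolar probe sets and of all probe sets. On day 2 they gave 5 higher and 0 lower on array A (background 3% higher and 1.38% lower) and 2 higher and 0 lower on array B (9.84% and 8.52%), where sample 2 of day 2 had a weight of 17.3. On day 3 they gave 3 higher and 1 lower, all on array A (1.44% and 1.64%). On day 27, 2 were higher and 11 lower, again on array A (11.6% and 8.7%). On day 35, 6 were higher and 7 lower on array A (13.5% and 11.4%), and 0 were higher and 3 lower on array B (3.97% and 7.47%).

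**Figure D1:**
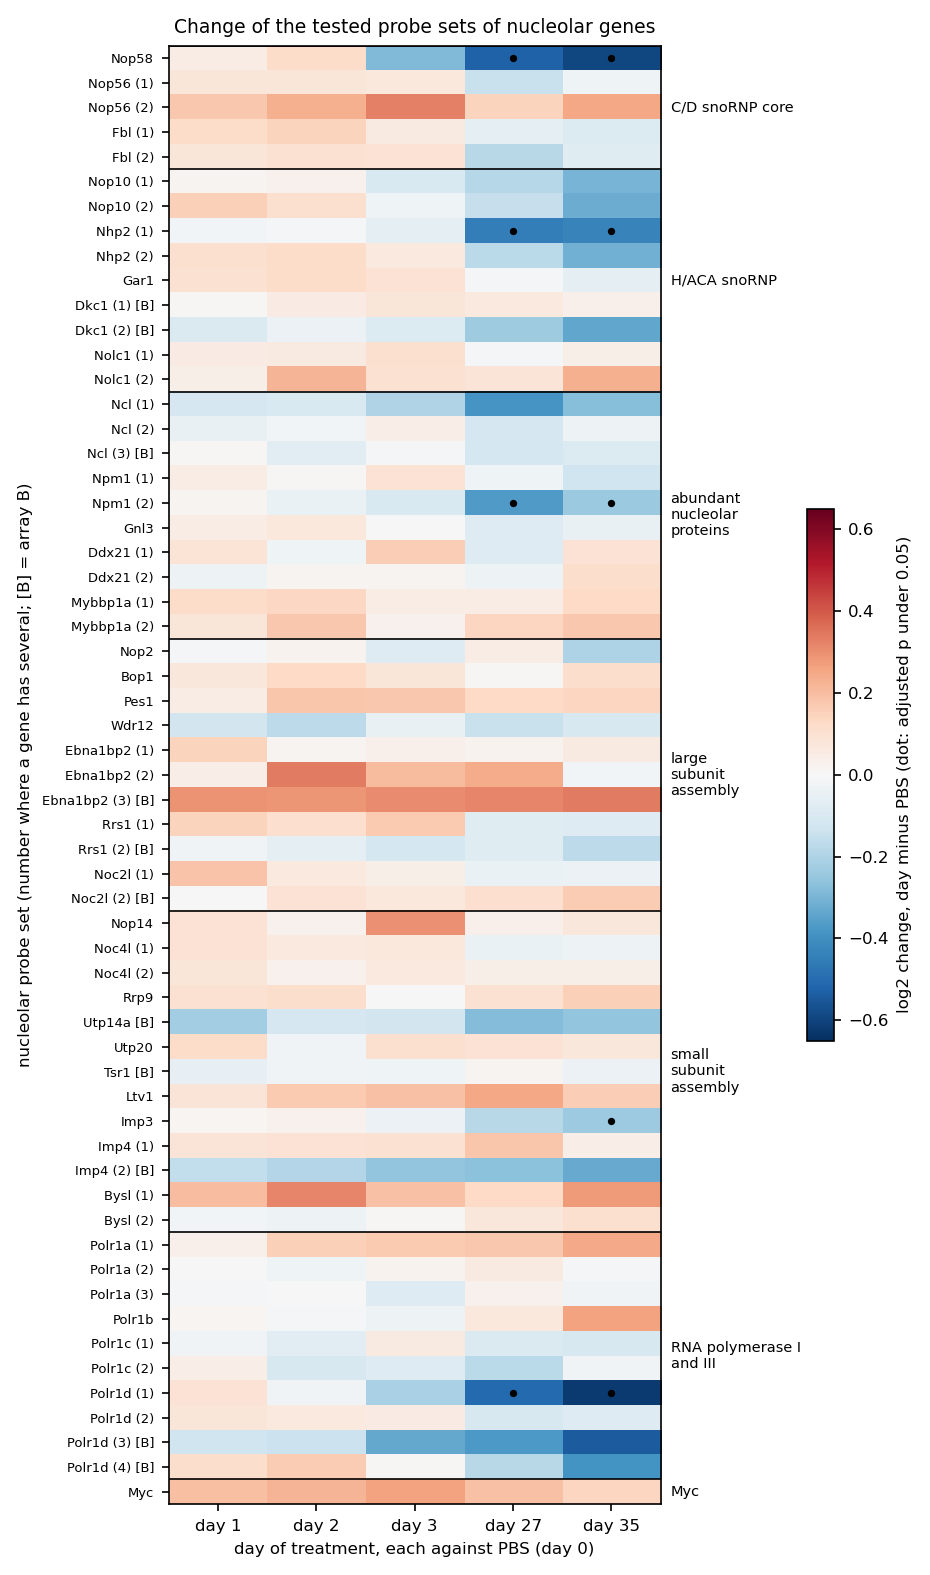
Each row is 1 of the 59 tested probe sets, grouped by role, and each column is 1 treated day, with colour giving the log2 change against PBS (3 samples in each group) and a dot marking an adjusted p under 0.05. Dots stand only on days 27 and 35, 4 and 5 of them, all on decreases.

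The late samples (mean of days 27 and 35, 6 samples) were also set against the early ones (mean of days 1, 2 and 3, 9 samples), a difference of means that takes no PBS value, although the PBS samples enter the spread that the fit estimates. Of the 59 probe sets, 14 were lower and 0 higher. On array A, 13 of 48 were lower, which is 27.1%, where 10.4% of all tested probe sets were lower and 4.98% higher. These 13 include Rrs1, which passed the filter only through early samples. They also include Nhp2 1416605_at, which passed only through PBS and early samples. On array B, 1 of 11 was lower, 9.09%, where 1.42% of all were lower and 0.24% higher. Among probe sets above the median on every array, 10 of 40 on array A were lower and 1 higher. The shares of all such probe sets there were 11.6% lower and 5.39% higher. With that filter 1 of 11 on array B was lower, against 1.82% of all. When the medians of the arrays were set equal, the split over all probe sets of array A moved from 609 higher and 1271 lower to 268 higher and 1648 lower. Over both arrays, 18 nucleolar probe sets were then lower and 0 higher. Array weights gave 18 lower and 2 higher, 16 and 2 of them on array A, where the balance over all probe sets turned to 1909 lower and 2205 higher. Leaving out the 3 samples of low weight gave 13 lower and 2 higher, 12 and 2 of them on array A, with 1420 lower and 1791 higher over all its probe sets. The median of the 59 changes was -0.06, with 43 of 59 below 0, and the median of all 24747 tested probe sets was 0.01.

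In 7 of the 59 probe sets, all 6 late samples lay below all 9 early samples. Of these, 6 are on array A, 12.5% of its 48, against 1.62% of all probe sets, and 1 is on array B, 9.09% of its 11, against 0.28%. They read Nop58, Fbl (both probe sets), Nhp2, Imp3 and Polr1d (1 on each array). The Nhp2 probe set here, 1416605_at, passed the filter only through PBS and early samples, so it is counted but adds no support. In the other Nhp2 probe set late and early samples overlapped. Between the late days no probe set was called: day 35 against day 27 gave 0 of 59, with 0% called on array A and 0% on array B over all probe sets in limma, and 1 of the 59 had an unadjusted p under 0.05, against 4.72% of all tested probe sets.

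**Figure D2:**
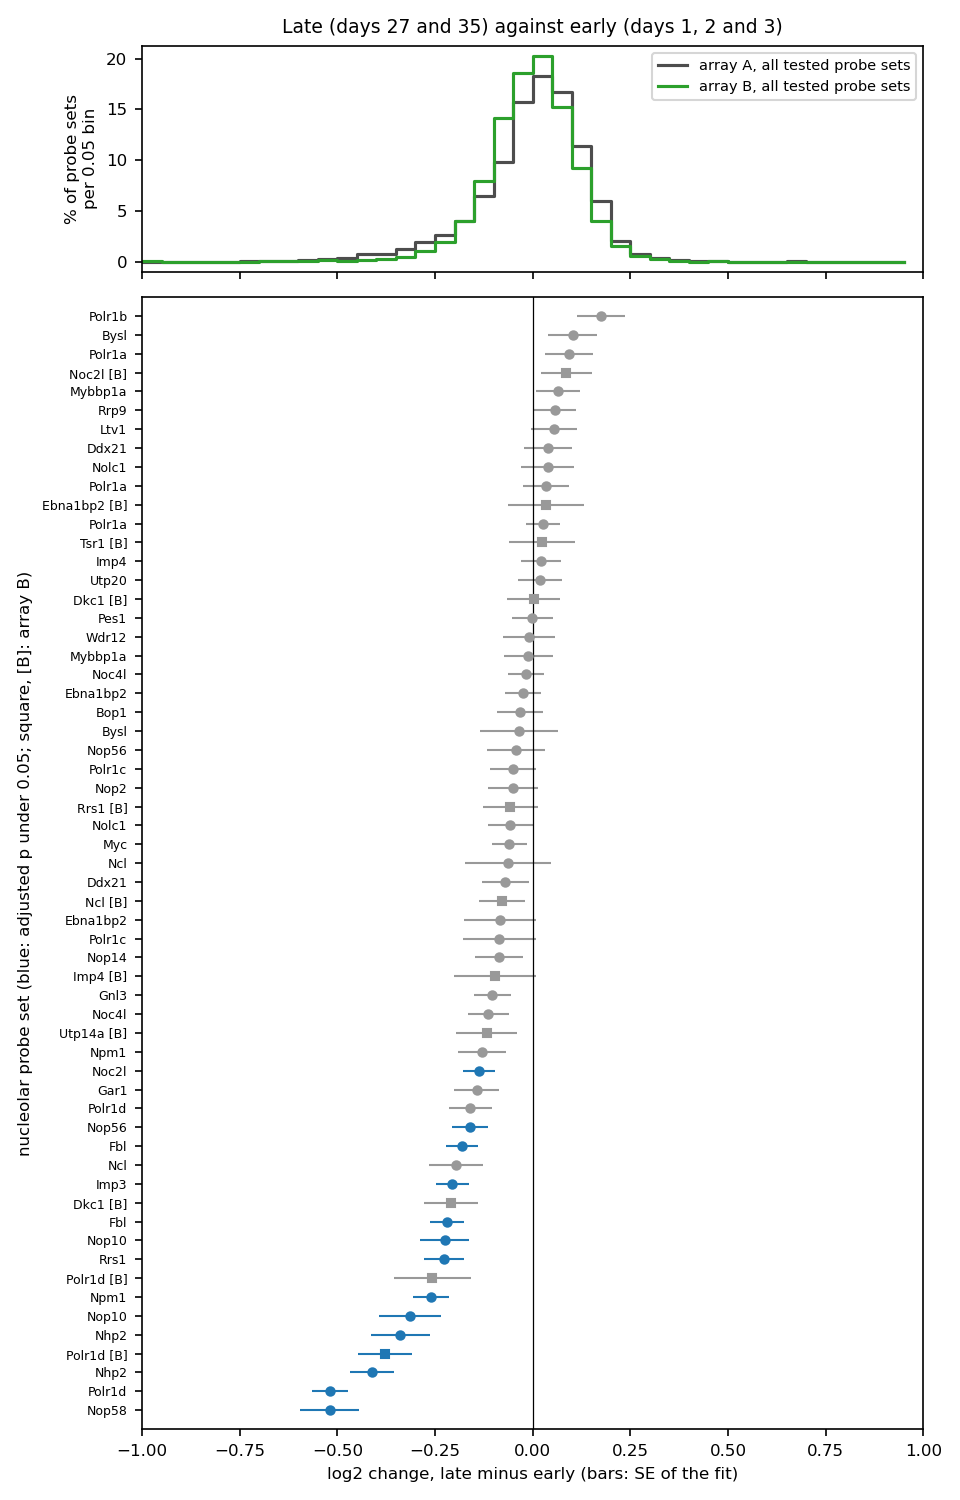
The lower panel gives the late minus early log2 change of each of the 59 probe sets with its SE, blue where the adjusted p was under 0.05 and square for array B, and the upper panel gives the percentage of all tested probe sets in bins of 0.05. The 14 blue points lie between -0.52 and -0.14, and the gray points run up to 0.17 for Polr1b.

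The promoters of the genes with the largest decreases are shown beside those of Nop2 and Imp4, assembly factors that passed in no comparison. Nop2 and Imp4 were picked for the motif: they are the only 2 matched genes with a CACGTG before the start, and the other 5 matches lie after it. RefSeq promoter windows (build GRCm38.p6, 250 bases before to 50 after the start) were matched for 33 of the 39 genes (not Bop1, Fbl, Myc, Npm1, Rrp12 and Rrs1), giving 36 windows. The 150 bases before the start are printed 5′ to 3′ on the gene's strand, the plus strand in all 5, with capitals for a motif: the E-box CACGTG, which Myc and related factors bind, or the ETS-type CCGGAAG. The intervals are chr5:147077196-147077345 for Polr1d, chr1:59684856-59685005 for Nop58, chr11:51619623-51619772 for Nhp2, chr6:125131733-125131882 for Nop2 and chr1:34439679-34439828 for Imp4.
Polr1d: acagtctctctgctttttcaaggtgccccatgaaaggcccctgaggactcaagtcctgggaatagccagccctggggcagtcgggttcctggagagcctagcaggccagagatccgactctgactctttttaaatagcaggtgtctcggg
Nop58: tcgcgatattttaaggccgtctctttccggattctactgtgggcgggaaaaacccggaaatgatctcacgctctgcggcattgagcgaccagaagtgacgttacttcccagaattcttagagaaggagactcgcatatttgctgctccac
Nhp2: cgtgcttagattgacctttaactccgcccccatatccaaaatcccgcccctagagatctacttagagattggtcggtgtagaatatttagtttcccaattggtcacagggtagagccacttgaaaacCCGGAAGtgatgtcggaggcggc
Nop2: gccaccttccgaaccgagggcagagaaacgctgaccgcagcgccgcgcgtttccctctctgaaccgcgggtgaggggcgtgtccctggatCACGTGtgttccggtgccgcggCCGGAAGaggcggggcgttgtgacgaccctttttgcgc
Imp4: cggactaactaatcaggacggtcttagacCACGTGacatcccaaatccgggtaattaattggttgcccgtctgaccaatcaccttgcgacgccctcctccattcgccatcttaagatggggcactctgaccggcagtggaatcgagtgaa

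Searched on both strands, CACGTG occurred in 7 of the 36 windows (19.4%), against 7.15% of all 32851 windows in the table. These were the windows of Imp4, Ltv1, Mybbp1a, Nop2, Pes1, Tsr1 and Utp20. Of the 7 genes with a matched window and a lower late level, 0 held it, and of the 23 tested genes with a window and no late call, 7 held it. Fbl, Npm1 and Rrs1, also lower late, had no window. No difference is read from so few genes. CCGGAAG occurred in 11 windows of 10 genes (30.6%), against 8.86% of all windows, and 2 of those genes, Nhp2 and Noc2l, were lower late. That is 2 of the 7 genes lower late, and 7 of the 23 without a late call held it. In Nhp2 the match begins 23 bases before the start, as the capitals above show. TATAAA was found in 2 windows, those of Dkc1 and Pes1 (5.56%, against 13.6% of all). The NRF1 motif was found in 0 windows (0.971% of all). CACGTG reads the same on both strands, and no motif contains another. A match describes only these letters. The windows were richer in G and C (median 60.3%) than all windows (54%).

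The 3 box C/D core genes listed all fell late against early: Nop58 and Nop56, the paired scaffold proteins, and Fbl, fibrillarin, the methyltransferase. Of their 5 tested probe sets 4 were lower, on array A, where 10.4% of all probe sets were lower, and 8.26% of all genes had such a probe set. These shares are the background for the counts of each role that follow, and nothing particular to a role is read from so few genes. For the box C/D genes the median late minus early log2 change was -0.18. Nop58 (1450986_at, array A) read 566.1, 426.1 and 450.9 in PBS nodes, and 520.5, 537.8 and 429.6 on day 1. Days 2 and 3 gave 517.3, 523.7 and 516.9, and 388.4, 433.6 and 355.1. On day 27 it read 314.8, 335.1 and 345.3, and the day 35 values were 333.5, 355 and 268.4. The late samples were all below PBS, and the highest late sample lay just under the lowest early one. On day 3, 2 of the 3 samples were below all PBS samples, but day 3 was not called, where the change came to -0.29 (SE 0.116, adjusted p = 0.405). Nop58 fell by 0.53 (SE 0.116, adjusted p = 0.0169) on day 27 and by 0.59 (SE 0.116, adjusted p = 0.00467) on day 35, and late against early by 0.52 (SE 0.0747, adjusted p = 0.000143). The day 27 call was lost without PBS sample 1 or day 27 sample 1 (adjusted p up to 0.0764 in limma), with no filter on dim probe sets (0.0555) and in a fit of only the 2 groups compared (0.0524).

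Fbl was lower by both of its probe sets. By probe set 1416685_s_at on array A, Fbl read 1118, 1072 and 1021 in PBS nodes, 1155, 1126 and 1106 on day 1, 1177, 1146 and 1117 on day 2, and 1085, 1101 and 1248 on day 3. The late values were 929.6, 943.6 and 957.5 (day 27), and 1069, 971.5 and 1004 (day 35). The late values lay below every early value, and 1 of them lay within the PBS range. The late minus early change was -0.22 (SE 0.043, adjusted p = 0.00178). The suffix s marks a probe set whose probes may match more than 1 transcript. Intensities of Fbl (1416684_at, array A) were 1024, 953.1 and 932.3 in PBS nodes, and 1038, 1041 and 1080 on day 1. The values of days 2 and 3 were 1098, 1070 and 1045, and 1007, 994.8 and 1027. It read 903.7, 986.7 and 904.9 on day 27, and 961.4, 915.9 and 857.7 on day 35. Here too the late samples were all below the early samples, and they overlapped PBS. The change was -0.18 (SE 0.0415, adjusted p = 0.00568). Neither Fbl probe set was called on a late day against PBS (adjusted p from 0.15 to 0.657 in limma), and every early sample exceeded 2 of the 3 PBS samples on both.

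The probe sets of Nop56 did not share a call. Nop56 (1426533_at, array A) read 624.5, 576.4 and 610.6 in PBS nodes, 649.9, 645.7 and 613.9 on day 1, 658.9, 610.5 and 643.6 on day 2, and 595.2, 618.7 and 688.4 on day 3. On day 27 it read 506.7, 543.1 and 590.7, and the day 35 values were 612.2, 598 and 568.1. Late and early samples overlapped, and the lowest values came from day 27 samples 1 and 2. The late minus early change was -0.16 (SE 0.0466, adjusted p = 0.0254), and it missed the threshold without day 2 sample 1, day 27 sample 1, day 35 sample 2 or day 35 sample 3 (adjusted p up to 0.077), and without the 3 samples of low weight (0.0707). The other Nop56 probe set, 1455035_s_at, gave -0.04 (SE 0.0746, adjusted p = 0.755). Against PBS the signs differed on the late days. Probe set 1455035_s_at gave 0.15 on day 27 and 0.25 on day 35, and 1426533_at gave -0.15 and -0.03, none called.

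Among the box H/ACA genes 2 of 5 fell, Nhp2 and Nop10, which are small core proteins of the pseudouridylating particle. Of 9 probe sets 4 were lower, and the median late minus early change was -0.21. By probe set 1416605_at on array A, Nhp2 read 292.3, 267.6 and 301.5 in PBS nodes, and 271.4, 305.7 and 272.8 on day 1. For days 2 and 3 the values were 308.9, 281.5 and 266.9, and 275.3, 270.3 and 276.9. The late values were 204.1, 230.7 and 197.2 (day 27), and 220.1, 198.9 and 217.5 (day 35). The late samples of Nhp2 lay below all PBS and all early samples. Nhp2 fell by 0.45 (SE 0.086, adjusted p = 0.00716) on day 27 and by 0.44 (SE 0.086, adjusted p = 0.00485) on day 35, and late against early by 0.41 (SE 0.0555, adjusted p = 8.41e-05). A fit of only the groups compared lost the day 27 call (adjusted p = 0.0813). All late values and most early ones lie under the table's median of 286.7. The probe set passed the filter through PBS and early samples only. With every value under that median raised to it the change was -0.02 (adjusted p = 0.576), a setting that leaves little room for a difference.

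The second Nhp2 probe set moved the same way with more spread. Intensities of Nhp2 (1416606_s_at, array A) were 694.7, 624.2 and 649 in PBS nodes, 697.9, 734 and 683.3 on day 1, 733.3, 690.6 and 710 on day 2, and 657.6, 790.5 and 615.1 on day 3. It read 562.3, 687.6 and 504.3 on day 27, and 611.7, 539.4 and 446.6 on day 35. The day 27 sample 2 value sat among the early values, and day 35 sample 3 was the lowest of all 18. The late minus early change was -0.34 (SE 0.075, adjusted p = 0.00451), and neither late day was called against PBS (adjusted p = 0.431 and 0.114 in limma).

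In Nop10, a further H/ACA core protein, 2 samples stood apart from their groups. Nop10 (1423211_at, array A) read 1291, 1239 and 1072 in PBS nodes, and 1256, 1367 and 1378 on day 1. Days 2 and 3 gave 1277, 1210 and 1378, and 1242, 1331 and 975.2. On day 27 it read 988.1, 1275 and 997.2, and the day 35 values were 1086, 977.1 and 822.6. Day 3 sample 3 was as low as the late samples, and day 27 sample 2 was as high as the early ones. Both are among the 3 array A samples of low weight, as is day 35 sample 3, which read lowest. The change was -0.31 (SE 0.0799, adjusted p = 0.0121). By probe set 1423210_a_at on array A, Nop10 read 1883, 1830 and 1682 in PBS nodes, 1823, 1734 and 1893 on day 1, 1830, 1904 and 1758 on day 2, and 1754, 1875 and 1434 on day 3. The late values were 1429, 1774 and 1552 (day 27), and 1572, 1477 and 1332 (day 35). The same pair of samples stood apart here, and the groups overlapped. The change was -0.23 (SE 0.0624, adjusted p = 0.0194), and this call was lost without day 27 sample 1 or day 35 sample 3 (adjusted p up to 0.0613) and under quantile scaling (0.0715).

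The remaining H/ACA genes did not pass. Gar1, another core protein, changed by -0.14 (SE 0.0573, adjusted p = 0.102). Dkc1, dyskerin, the pseudouridine synthase itself, had 1 probe set at -0.21 (SE 0.0685, adjusted p = 0.146) and the other at 0.00 (SE 0.0671, adjusted p = 0.993), both on array B. Nolc1, a chaperone of these particles that shuttles between nucleolus and cytoplasm, gave -0.06 and 0.04 from its 2 tested probe sets. So within the H/ACA group Nop10 and Nhp2 were called and the enzyme and Gar1 were not, a difference between genes that was not tested.

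**Figure D3:**
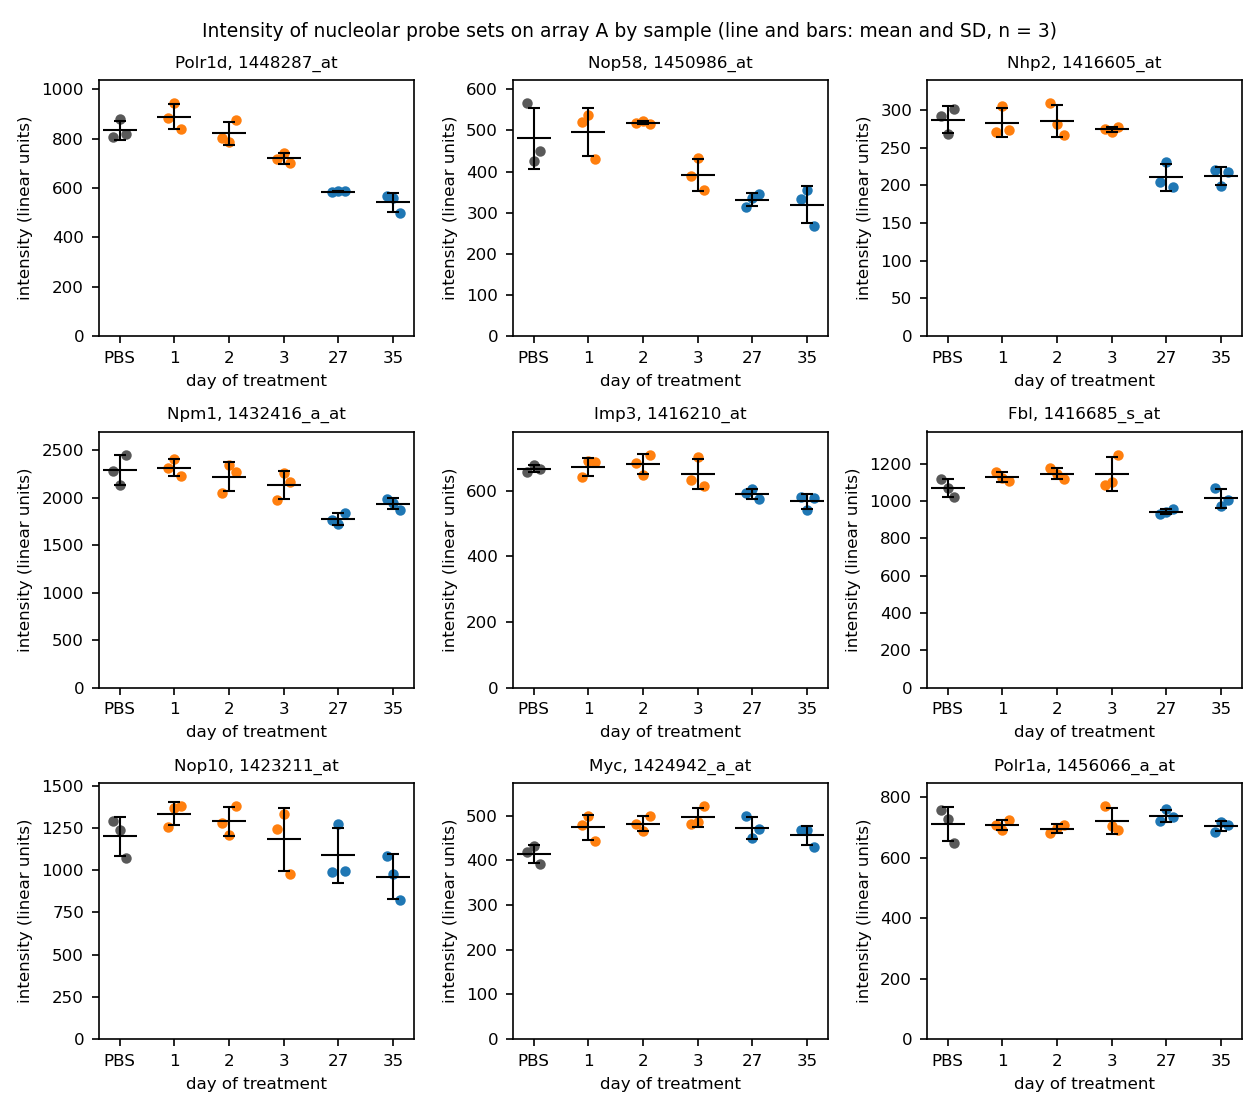
Array A intensity (linear, axis from 0) of 9 probe sets in each of the 18 samples by day, gray for PBS, orange for days 1 to 3 and blue for days 27 and 35, with the mean and SD of 3 samples. Polr1d, Nop58, Nhp2, Imp3 and Fbl have no late sample at or above the lowest early sample, Myc is higher than PBS in all 9 early samples, and Polr1a shows late values of 686.9 to 761.4 within an early range of 681.2 to 770.6.

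Of the abundant nucleolar proteins, 1 of 5 genes was called, by 1 of 10 probe sets, and the median late minus early change of the 10 was -0.07. Npm1, nucleophosmin, a histone and ribosome chaperone, was that gene. Intensities of Npm1 (1432416_a_at, array A) were 2277, 2137 and 2453 in PBS nodes, and 2314, 2407 and 2227 on day 1. The values of days 2 and 3 were 2054, 2345 and 2268, and 1979, 2264 and 2164. It read 1762, 1720 and 1841 on day 27, and 1991, 1942 and 1876 on day 35. All late samples lay below all PBS samples, and only day 35 sample 1 exceeded the lowest early sample. Npm1 fell by 0.37 (SE 0.0712, adjusted p = 0.00774) on day 27 and by 0.24 (SE 0.0712, adjusted p = 0.0475) on day 35, and late against early by 0.26 (SE 0.0459, adjusted p = 0.000739). The day 27 call was lost without PBS sample 3 (adjusted p = 0.0577) and in a fit of only the groups compared (0.0696). The day 35 call was lost when any PBS or day 35 sample except PBS sample 2 was left out (up to 0.215), and it held in 4 of 12 other settings (adjusted p up to 0.247). The other Npm1 probe set, 1415839_a_at, gave -0.13 (SE 0.0614, adjusted p = 0.17). Npm1 has many processed copies in the genome, and its probe sets may not tell them apart.

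Ncl, nucleolin, which binds nascent ribosomal RNA, came close to the threshold in 1 of 3 tested probe sets. Ncl (1415771_at, array A) read 1985, 2131 and 2211 in PBS nodes, 2006, 2184 and 1709 on day 1, 1947, 1997 and 1952 on day 2, and 1832, 1842 and 1848 on day 3. On day 27 it read 1675, 1320 and 1902, and the day 35 values were 1637, 1869 and 1719. The late samples were all below the PBS samples, and they overlapped the early ones. The change was -0.38 (SE 0.106, adjusted p = 0.0535) on day 27 and -0.20 (SE 0.0682, adjusted p = 0.059) late against early, and the other Ncl probe sets gave -0.06 and -0.08. Gnl3, nucleostemin, a GTPase of dividing cells, gave -0.10 (SE 0.0472, adjusted p = 0.152). Ddx21, an RNA helicase, gave -0.07 and 0.04, and Mybbp1a, a partner of the RNA polymerase I machinery, gave -0.01 and 0.07. None of these was called.

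Among the large subunit assembly factors, 7 of 9 listed genes were tested and 2 fell, by 2 of 11 probe sets, with a median late minus early change of -0.03. Rrs1, which brings the 5S particle into the precursor, was 1 of them. By probe set 1416998_at on array A, Rrs1 read 256.6, 275.2 and 253.1 in PBS nodes, and 296.4, 297.6 and 274.2 on day 1. For days 2 and 3 the values were 279.7, 290.3 and 277.5, and 303, 286.6 and 294.2. The late values were 275.2, 223 and 246.8 (day 27), and 237.3, 251.6 and 250.2 (day 35). The late samples lay below the early ones except day 27 sample 1, and they overlapped PBS. The late minus early change was -0.23 (SE 0.0511, adjusted p = 0.00523), and the early days stood 0.11 to 0.17 above PBS on the log2 scale, none called. All late and PBS values of Rrs1 lie under the table's median of 286.7, so it passed the filter only through early samples. The filter thus admitted it through the group where it was high, and its call adds no support. With values under that median raised to it the change was -0.03 (adjusted p = 0.391). The array B probe set, 1456865_x_at, gave -0.06 (SE 0.0708, adjusted p = 0.79).

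Noc2l, named after a yeast factor that accompanies large subunit precursors through the nucleus, was the other. Intensities of Noc2l (1424323_at, array A) were 337, 319.3 and 305.5 in PBS nodes, 364.1, 362 and 366.1 on day 1, 333.6, 332.5 and 338.8 on day 2, and 312.4, 345.6 and 329.8 on day 3. It read 310.7, 310 and 312.1 on day 27, and 315, 325.9 and 294.9 on day 35. The day 1 samples were high and the groups overlapped at day 3. The change was -0.14 (SE 0.0416, adjusted p = 0.0319), and leaving out any of 9 of the 15 early and late samples ended the call (adjusted p up to 0.0747), as did leaving out the 3 samples of low weight (0.0737). The samples were 1 and 2 of day 1, 1 and 3 of day 2, 2 of day 3, 1 and 3 of day 27, and 1 and 3 of day 35. The array B probe set of Noc2l, 1436136_at, gave 0.09 (SE 0.0651, adjusted p = 0.611), the opposite sign.

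The remaining large subunit factors kept close to 0 late against early. Pes1, Bop1 and Wdr12, which form a complex needed to process the internal spacer, gave -0.001, -0.03 and -0.01 late against early. Nop2, a ribosomal RNA methyltransferase whose promoter carries both motifs above, gave -0.05 (SE 0.0646, adjusted p = 0.657). Its day 35 minus day 27 change was -0.25 (SE 0.1, adjusted p = 0.672), the 1 unadjusted p under 0.05 in that comparison. Ebna1bp2, which also acts on the large subunit precursor, gave -0.02 and -0.08 on array A and 0.03 on array B. Against PBS its array B probe set, 1439898_at, stood 0.29 to 0.34 higher on every treated day. Its array A probe sets lay between -0.02 and 0.34 against PBS, and none of these changes was called.

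Small subunit assembly factors made the largest group, with 10 of 11 genes tested, and 1 fell. The median late minus early change of the 13 probe sets was -0.02. Imp3, which with Imp4 and Mphosph10 holds the U3 small nucleolar RNA on the precursor, was that gene. Imp3 (1416210_at, array A) read 656.7, 679.7 and 668.4 in PBS nodes, and 642.7, 692.2 and 687.1 on day 1. Days 2 and 3 gave 685, 648.6 and 710.3, and 632.7, 703.3 and 616.3. On day 27 it read 593.9, 604.7 and 574.1, and the day 35 values were 583, 543.1 and 578.8. Every late sample lay below every early and every PBS sample. Imp3 fell by 0.23 (SE 0.0656, adjusted p = 0.0359) on day 35 and by 0.21 (SE 0.0424, adjusted p = 0.0027) late against early, and on day 27 it missed the threshold at -0.18 (SE 0.0656, adjusted p = 0.151). The day 35 call was lost when any of the 6 samples compared was left out (adjusted p up to 0.166) and in a fit of only the groups compared (0.0781). The late against early call was kept in all 15 such fits.

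Imp4, the binding partner of Imp3 with a CACGTG in its promoter, was not called. By probe set 1426213_at on array A, Imp4 read 495.7, 518.6 and 423.1 in PBS nodes, 500.3, 498.5 and 518.1 on day 1, 527.4, 495.6 and 504.2 on day 2, and 521.2, 505 and 506.8 on day 3. The late values were 534.7, 565.5 and 522.9 (day 27), and 521.6, 517.6 and 442.7 (day 35). The groups overlapped, and the lowest values came from PBS sample 3 and day 35 sample 3. The change was 0.02 (SE 0.0504, adjusted p = 0.824) on array A and -0.10 (SE 0.104, adjusted p = 0.746) for the array B probe set 1455723_at. Nop14 and Noc4l, partners in the small subunit processome, gave -0.09, and -0.11 and -0.02. Nop14 had its highest value on day 3, at 0.30 (SE 0.0959, adjusted p = 0.256) against PBS. Utp14a, Utp20 and Rrp9, other parts of the processome, gave -0.12, 0.02 and 0.06. Tsr1, Ltv1 and Bysl, which act late in the maturation of the small subunit, gave 0.02, 0.06, and -0.04 and 0.10.

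Of the RNA polymerase subunits 1 of 4 tested genes fell, Polr1d, which RNA polymerase I and III share. Of 10 probe sets 2 were lower, and their median was -0.07. Intensities of Polr1d (1448287_at, array A) were 805, 877.5 and 816.5 in PBS nodes, and 883.9, 942.8 and 839.5 on day 1. The values of days 2 and 3 were 801.4, 786.2 and 874.9, and 715.6, 743.2 and 700.3. It read 582.3, 588 and 586.1 on day 27, and 568.9, 557.4 and 497.6 on day 35. The late samples lay below every other sample, and the 3 day 3 samples lay below all PBS, day 1 and day 2 samples. Polr1d fell by 0.51 (SE 0.0701, adjusted p = 0.000602) on day 27 and by 0.62 (SE 0.0701, adjusted p = 8.28e-05) on day 35, and late against early by 0.52 (SE 0.0452, adjusted p = 3.39e-06). On day 3 the change was -0.21 (SE 0.0701, adjusted p = 0.275). Leaving out any 1 sample ended none of the 3 calls.

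Polr1d was also read by array B. Polr1d (1459657_s_at, array B) read 874.9, 1106 and 1137 in PBS nodes, 1061, 1193 and 1102 on day 1, 1144, 1183 and 1143 on day 2, and 1168, 979.9 and 978.3 on day 3. On day 27 it read 914.4, 924.2 and 897.7, and the day 35 values were 702.3, 848 and 825.3. All late samples were below all early samples, and PBS sample 1 lay within the late range. The change was -0.38 (SE 0.0687, adjusted p = 0.00524), and on day 35 against PBS it was -0.39 (SE 0.106, adjusted p = 0.0506). The other array B probe set, 1447320_x_at, gave -0.26 (SE 0.0981, adjusted p = 0.232), and the second on array A, 1451120_at, gave -0.16 (SE 0.0545, adjusted p = 0.0557). All 4 Polr1d probe sets had a negative sign, 2 of them called.

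The remaining polymerase subunits passed in no comparison. Polr1a, the largest subunit, gave 0.03, 0.04 and 0.09 from 3 probe sets, with none called. Polr1b, the second largest, gave 0.17 (SE 0.061, adjusted p = 0.0602), which was not called. By probe set 1416126_at on array A, Polr1b read 356.5, 311.5 and 323.5 in PBS nodes, and 372.4, 321.5 and 308.6 on day 1. For days 2 and 3 the values were 320.1, 372.9 and 295.6, and 327.9, 328.6 and 312.2. The late values were 356.6, 323.7 and 358 (day 27), and 392.3, 433.2 and 366 (day 35). Samples 1 and 2 of day 35 were above all others, and the rest overlapped. Polr1c, the partner of Polr1d in both polymerases, gave -0.05 and -0.09, neither called.

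Myc itself was not called in any comparison. Intensities of Myc (1424942_a_at, array A) were 419.1, 431 and 391.4 in PBS nodes, 479.3, 498.6 and 442.4 on day 1, 482.1, 464.4 and 498 on day 2, and 481.6, 485.5 and 520.8 on day 3. It read 498.1, 449.4 and 470.6 on day 27, and 468, 468.2 and 430.2 on day 35. All 9 early samples and 5 of the 6 late samples stood above the highest PBS sample. The log2 changes against PBS were 0.19, 0.22, 0.26, 0.19 and 0.14 on days 1, 2, 3, 27 and 35, and the smallest adjusted p was 0.12, on day 3 (SE 0.0688, limma). Late against early the change was -0.06 (SE 0.0444, adjusted p = 0.405). The 5 day comparisons share the same PBS samples.

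Other genes of the same machinery, from lists chosen with earlier results of these data known, were counted by the brightest tested probe set of each gene. On that count 9 of the 35 nucleolar genes were lower late against early (25.7%), where 6.2% of all 12395 genes were lower and 3.09% higher. Of 11 other RNA polymerase I subunits and initiation factors 3 were lower: Znrd1 at -0.49, and Polr2h and Polr2e, which all nuclear RNA polymerases share, at -0.27 and -0.23. Of 19 RNA polymerase III subunits and factors 0 were lower and 1 was higher, Gtf3c4 at 0.23. Of 44 other small subunit factors 4 were lower, Emg1, Nol7 and Pno1 among them (-0.25, -0.26 and -0.19). Of 49 other large subunit factors 6 were lower, with Pa2g4 at -0.38, Rpf2 at -0.36 and Nop53 at -0.22. Of 20 genes of the exosome and RNase MRP, which trim the precursor, 3 were lower: Exosc3 (-0.37, array B), Exosc1 (-0.23) and Pop5 (-0.19). Of 9 genes of the Myc family none was called (Mxd4 -0.12, Mxi1 0.10, Mycn 0.14).

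Other measures moved beside the nucleolar genes. Of 22 cell cycle genes 5 were lower late against early, with Pcna at -0.32, Mcm7 at -0.24 and Cdk1 at -0.21. Over all genes, counted in the same way, 6.2% were lower. Summed over the 27 listed with a probe set, intensity was 14910 to 16090 on day 27 and 15590 to 17500 on day 35. It was 16200 to 18840 over days 1 to 3 and 15340 to 17110 in PBS. Of 8 fat cell markers 3 were lower. Their sum ran from 15520 to 18530 on day 27 and from 12090 to 15880 on day 35. It ran from 15170 to 19530 over days 1 to 3 and from 17810 to 19570 in PBS. The summed B cell markers ran from 12320 to 13910 over both late days, 12080 to 15140 over days 1 to 3 and 13480 to 14040 in PBS. The T cell sums ran from 6691 to 7230, 6825 to 7459 and 7025 to 7182 in the same order. By gene, 1 of 8 B cell markers was lower late against early (Cd79a, -0.26) and 1 higher (Cd22, 0.18). Among 7 T cell markers 1 was lower (Cd3d, -0.27), as were 2 of 10 macrophage, 1 of 6 plasma cell and 1 of 5 erythroid markers. The 9 stromal markers had 1 lower and 1 higher. The part of these measures in the decreases was not tested.

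The respiratory chain genes were also lower in the late samples. In each array A sample, the mean log2 deviation of the 44 small subunits was 0.12 to 0.16 in PBS, 0.14 to 0.21 on days 1 and 2, and 0.10, 0.19 and -0.26 in samples 1, 2 and 3 of day 3. It was -0.18, -0.01 and -0.29 on day 27 and -0.24, -0.45 and -0.32 on day 35. The 13 nucleolar probe sets of array A with a late decrease had means of 0.02, 0.10 and -0.01 on day 3, -0.21, -0.12 and -0.19 on day 27, and -0.12, -0.18 and -0.29 on day 35. These 13 were chosen for being lower late, so their means only describe that choice. In Nop10, as given above, day 3 sample 3 and day 27 sample 2 stood apart as they did in the respiratory genes. The other 35 nucleolar probe sets, those without a late call, stayed between -0.09 and 0.05 in every sample.

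**Figure D4:**
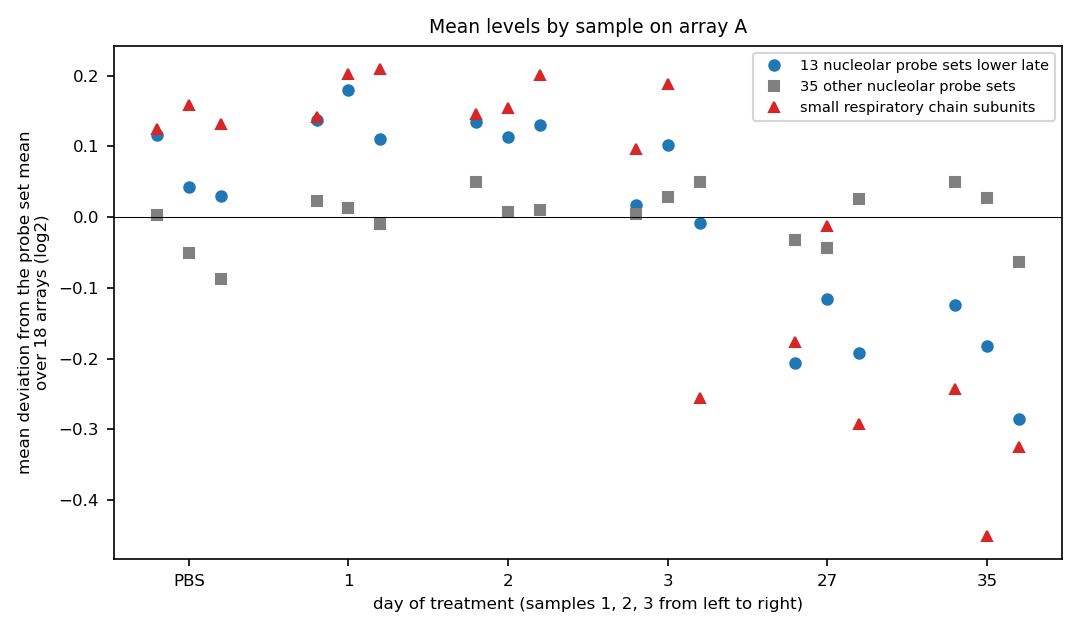
Mean log2 deviation from each probe set's own mean over 18 arrays, by sample on array A, for the 13 nucleolar probe sets lower late (circles), the other 35 (squares) and 44 small respiratory chain subunits (triangles). The circles run from -0.29 to -0.12 in the 6 late samples, and the triangles fall to -0.26 in sample 3 of day 3 and stay at -0.01 in sample 2 of day 27.

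With the respiratory mean as a covariate in the limma fit, 2 of the 59 probe sets were still lower late against early. They were Polr1d 1448287_at at -0.46 (adjusted p = 0.0152) and Fbl 1416685_s_at at -0.31 (adjusted p = 0.0347). The covariate was the mean of each array A sample, given also to the array B sample of the same day and number. The labels do not say whether those share RNA. Nop58 kept a change of -0.45 (adjusted p = 0.0779) and Nhp2 1416605_at one of -0.33 (adjusted p = 0.07), neither past the threshold. The second Nhp2 probe set, 1416606_s_at, went from -0.34 to -0.03 (adjusted p = 0.905). Imp3 went to -0.07 (adjusted p = 0.582), and the Nop10 probe sets turned to 0.05 and 0.08 (adjusted p = 0.8 and 0.711). On the same fit the share of all array A probe sets lower late was 2.22%, in place of 10.4%. The covariate also left none of the 5 day 35 calls, with Polr1d 1448287_at at -0.55 (adjusted p = 0.0674). That mean itself differs between the early and the late samples.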

How the data were processed

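Mesenteric lymph node RNA of 6 groups was measured on 2 Affymetrix arrays, 18 arrays each. The authors deposited 1 linear intensity per probe set and array, for which the software, any background step and the scaling were not given in the sources used here. Intensities were used as deposited. A floor was set at each table's 20th percentile, 122.6 for array A and 76.57 for array B, and log2 was taken. Probe sets above the table median (286.7 and 157.9) on at least 3 arrays entered the test: 12231 of array A, 12516 of array B. The 64 control probe sets of each were left out. Each table was fitted with limma 3.58.1 in R 4.3.3 (lmFit, eBayes with a mean-variance trend, all groups in 1 fit), tested on simulated data first. P-values are two-sided, with Benjamini-Hochberg adjustment over all tested probe sets of a table in each comparison. A gene's name was taken from the platform annotation where a probe set had 1 symbol. The genes and lists were chosen with earlier results of these data known. Genes with a call in any comparison, and Myc, are given in every sample, and the 3 genes of smallest p from each other list are named. Ncl, Imp4 and Polr1b are also given in every sample, chosen after their values were seen. Alternatives covered scaling, floor, filter, variance model, array weights, replicate block, a covariate and samples left out.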

Additional observations from a re-analysis of the deposited data

Results flagged for a closer look

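In each of the following probe sets the change against PBS differed between the late days and the early days, by the late minus early contrast in limma on the log2 scale, and that difference is what singled them out. On array A they were Nop58 (-0.52), Polr1d (-0.519), Nhp2 (-0.411 and -0.339), Nop10 (-0.313 and -0.225), Npm1 (-0.261), Rrs1 (-0.226), Fbl (-0.22 and -0.181), Imp3 (-0.205), Nop56 (-0.16) and Noc2l (-0.137). On array B it was Polr1d (-0.379). Each rests on 6 late and 9 early samples. Rrs1 passed the filter only through early samples, and the Nhp2 probe set at -0.411 only through PBS and early samples.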

How the results depend on the processing

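Counts below are of nucleolar probe sets called. Late against early gave 12 to 20 over the alternatives in place of 14, except 2 with the respiratory chain covariate and 9 when genes were counted by their brightest probe set. These counts take both directions. On array A 1 was higher with the floor at the table median (5.48% of all were higher). There 1 was also higher among probe sets above the median on every array (5.39%). With array weights, day 2 gave 7, all higher, day 3 gave 4 (3 higher), day 27 gave 13 and day 35 gave 16. With equal medians day 27 gave 7 and day 35 gave 9. Without the 3 samples of low weight both gave 9. Fitting only the groups compared gave 1 on day 27. The covariate gave 0 on day 35. The causes were not tested. Leaving out 1 sample at a time gave 0 to 0 for days 1, 2 and 3 and for day 35 against day 27, 3 to 5 for day 27, 3 to 4 for day 35 and 11 to 16 for late against early. The covariate turned the Nop10 changes to 0.045 and 0.0755. With the covariate, 17 of 23 named results lost their call, 2 reversed and 4 did not change side.

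With replicate number as a block, late against early gave 15, day 27 gave 5 and day 35 gave 10 (1 higher, 9 lower), and of 23 named results 1, Npm1 on day 35, lost its call (adjusted p = 0.0563). Of those 10 day 35 calls 5 are on array B, where the block moved the background from 361 lower and 88 higher to 864 and 463. Residuals of same-numbered samples of different days correlated with a median r of 0.0189 on array A (18 of 45 pairs over 0.1) and 0.37 on array B (34 of 45), against 0.00415 (28 of 90) and -0.098 (21 of 90) for different numbers. On array B 12 of 18 samples, and on array A 8 of 18, correlated best with their own number. As a hint from the data, the numbers on array B may mark something shared, but not every pair was over 0.1 and the labels name no shared source, so the fit without the block was kept.

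With 3 samples per group, small changes are hard to call: the SE of a day against PBS was 0.0643 to 0.172 on the log2 scale over the tested nucleolar probe sets.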
